A study of Mus musculus with 54 samples.

Results

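A set of 10 genes of the tumor necrosis factor (TNF) system were followed through 15 conditions of mouse macrophages, chosen by their symbols from 39179 genes counted in the series. They comprise Tnf itself, its receptors Tnfrsf1a and Tnfrsf1b, the superfamily ligands Tnfsf9, Tnfsf10, Tnfsf13b and Tnfsf15, the receptor adaptors Traf1 and Traf2, and the inhibitor Tnfaip3. Each of the 10 symbols matched 1 gene, and all 10 passed the filter on low counts in both experiments, among 16110 genes tested for polarization and 14172 for reprogramming. Peritoneal exudate cells came from wild-type C57BL/6 mice aged between 8 and 20 weeks, were elicited with thioglycolate 4 days before lavage, and the adherent cells were used. For polarization, cells of 3 mice were kept for 24 h without stimulus (M0), with 100 ng/ml lipopolysaccharide (LPS) and 50 ng/ml interferon gamma (M1-like), or with 10 ng/ml IL-4 (M2-like), each sequenced in 2 technical replicates that were summed. In the reprogramming experiment, 12 conditions with 3 replicates were sequenced: M0, M1-like and M2-like macrophages, each untransfected and with the transfection reagent only (mock), and M2-like macrophages transfected after 24 h with a negative siRNA pool, with a pool against E2f1, Myc, Pparg or Stat6, or with the combined pool against all 4 (iM1). RNA of the reprogramming study was taken 48 h after transfection, and transfected cells were cultured without IL-4 in that time. How long the untransfected cells of that experiment had been cultured, and whether the M1-like stimuli stayed in the medium, is not given in the sources used here. Labels of the reprogramming experiment give replicate numbers but no animals, and the study's methods speak of biological replicates where they describe the RNA used for quantitative PCR, iM1 included. The p-values there measure the spread between these samples. That spread was larger than between repeat libraries of 1 sample: the chi-square per gene between replicates of a condition was between 4.48 and 23.0, against 1.07 to 1.10 between the technical replicates of the polarization experiment.

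TNF is made as a membrane-bound trimer, from which the metalloprotease ADAM17 releases the soluble cytokine, and it binds a widely expressed receptor with a death domain (TNFR1, gene Tnfrsf1a) and a receptor of mainly immune and endothelial cells (TNFR2, gene Tnfrsf1b). TRAF proteins connect these receptors to ubiquitin ligases and to the NF-kB and MAP kinase pathways, and A20, the product of Tnfaip3, edits ubiquitin chains to end NF-kB signaling. Macrophages are a main source of TNF after Toll-like receptor stimulation, and several genes of the pathway, among them Tnfaip3 and Traf1, are themselves NF-kB targets.

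Libraries held between 19714994 and 29880494 counted reads for polarization and between 13421854 and 19704195 for reprogramming. Levels are given as CPM (read counts scaled to the TMM-normalized library size), and a gene was called at an adjusted p-value under 0.05 in edgeR's quasi-likelihood test. The 6 macrophage markers (Adgre1, Csf1r, Cd68, Itgam, Fcgr1, Mertk) were high in every group, with a summed level between 2632 and 4903 CPM. All 5 T and NK cell markers stayed under 1 CPM in every sample. Against the negative pool, the targeted mRNA was left at 25.2% ± 4.05 (E2f1), 38.0% ± 8.01 (Myc), 21.9% ± 2.57 (Pparg) and 27.3% ± 5.79 (Stat6) by the single pools (SD, n = 3), and at 60.4% ± 2.01, 39.6% ± 3.20, 28.3% ± 2.25 and 53.9% ± 4.82 by the combined pool. The Myc pool came from another supplier than the pools against E2f1, Pparg and Stat6, so the target and the supplier cannot be told apart in its effects. The combined pool also targets Myc, so this limit holds for iM1 macrophages and for their likeness to the Myc pool. The supplier of the negative pool is not given in the sources used here. In bulk RNA, fewer cells of a type and less RNA per cell cannot be told apart either.

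RefSeq's promoter windows on GRCm38.p6 matched 9 of the 10 genes, all but Tnfsf9. The 250 bases before the start site were searched on both strands for motifs of NF-kB, AP-1, STAT6, interferon-regulatory, MYC, E2F and PPAR factors. The windows of 2 genes called for the Myc pool are printed here, that of Tnf itself and that of Tnfaip3, the only one among the windows of such genes with a match. They lie at chr17:35202008-35202257 (Tnf) and chr10:19015411-19015547 (Tnfaip3, the 137 bases outside annotated exons). Both are on the minus strand and end at the base before RefSeq's start site. GENCODE M21 places the Tnfaip3 gene at chr10:19000910-19015657, so the printed stretch lies inside it. Distances for Tnfaip3 are from the first start site that RefSeq lists. A second Tnfaip3 window, at chr10:19011964-19012213, held no match. Capitals mark motif matches, and no matches of different motifs overlapped in these windows.
Tnf: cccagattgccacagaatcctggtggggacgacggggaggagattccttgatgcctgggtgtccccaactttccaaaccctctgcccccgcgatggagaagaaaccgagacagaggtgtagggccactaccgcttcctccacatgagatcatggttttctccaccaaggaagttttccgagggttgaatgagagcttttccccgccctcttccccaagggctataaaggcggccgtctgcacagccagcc
Tnfaip3: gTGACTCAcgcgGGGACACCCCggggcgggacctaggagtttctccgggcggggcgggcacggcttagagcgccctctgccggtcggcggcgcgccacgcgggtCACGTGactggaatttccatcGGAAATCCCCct
The windows of Tnf, Traf1 and Traf2, genes that were all called for the Myc pool, held none of the motifs searched. Tnfsf9, also called for the Myc pool, had no window to search. In Tnfaip3, the E-box bound by MYC (CACGTG) started 33 bases before the start site, the NF-kB consensus matched at 125 and 12 bases and the AP-1 site (TGANTCA) at 136 bases before it. Tnfrsf1b held an interferon-stimulated response element (ISRE) core at 10 bases before its start site, and the same core stood 16 bases before the second start site of Tnfsf13b. A match is a description only: of 32851 windows in the table, 6.02% held the E-box, 7.25% the NF-kB consensus, 6.75% the AP-1 site and 2.98% the ISRE core. The STAT6-type element, present in 5.85% of windows, was found in the whole Tnfaip3 window and in Tnfsf13b, and the E2F sites (TTTCGCGC, 0.256% and TTTGGCGC, 0.417%) and the PPAR direct repeat DR1 (0.0335%) were found in none of the 9 genes.

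**Figure D1:**
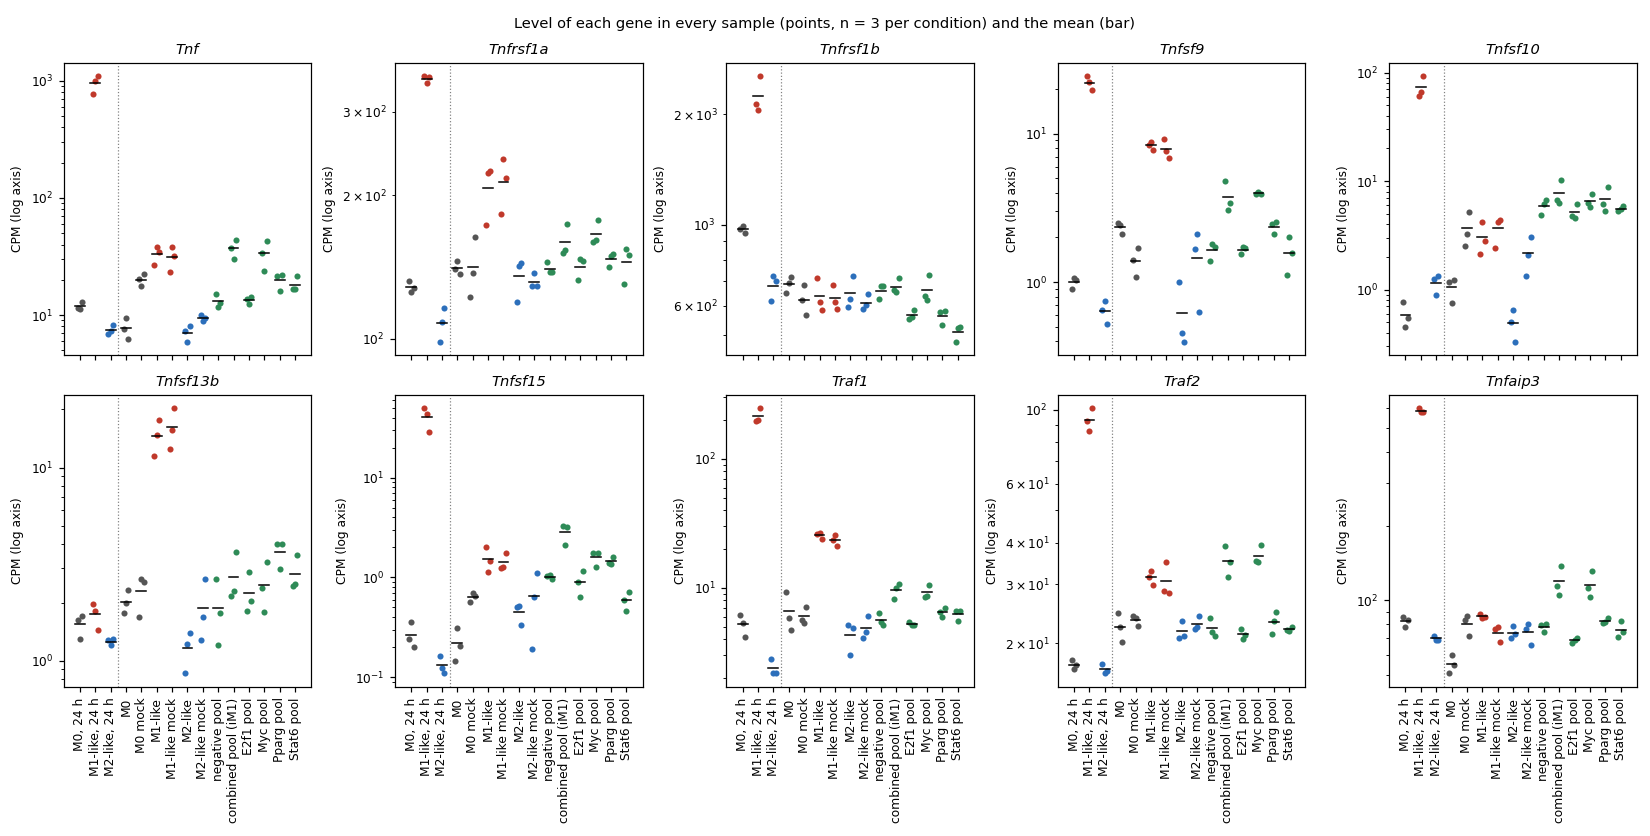
Level of each of the 10 genes in CPM (log axis) in the 15 conditions, with 1 point per sample and a bar at the mean of 3; grey is M0, red M1-like, blue M2-like and green M2-like macrophages transfected with an siRNA pool, and the dotted line separates the 24 h experiment from the reprogramming experiment. The M1-like points at 24 h lie above M0 and M2-like in 9 panels, while the Tnfsf13b points at 24 h lie between 1.20 and 1.97 CPM and its M1-like points to the right of the line between 11.5 and 20.3 CPM.

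The first comparison asked how the TNF genes differ between macrophages polarized for 24 h. Tnf (ENSMUSG00000024401, chr17:35199381-35202007, minus strand) was at 768, 988 and 1087 CPM in the M1-like samples of the 3 mice, at 11.5, 11.2 and 13.0 CPM in M0 and at 6.88, 7.32 and 8.18 CPM in M2-like macrophages. These 3 groups did not overlap in any mouse. M1-like exceeded M0 by a log2 fold change of 6.32 ± 0.14 (SE; adjusted p = 2.92e-12, edgeR), and M2-like macrophages were below M0 by a smaller step (-0.67 ± 0.13, adjusted p = 0.00233). Against M2-like macrophages, M1-like macrophages had 127-fold more Tnf mRNA.

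All 10 genes were called higher in 24 h M1-like than 24 h M2-like macrophages, where 34.6% of all genes tested were called higher. The median log2 fold change of the 10 genes was 4.09, beside -0.06 over all genes. Against M0, 9 of 10 rose in M1-like macrophages (35.4% of all genes), and the exception was Tnfsf13b. M2-like against M0 gave 6 genes lower (14.4% of all genes) and 1 higher (13.5%). These 3 comparisons share their samples, and each of them uses the same 3 mice. Groups did not overlap in 73.8% of all genes for M1-like against M2-like, 79.2% for M1-like against M0 and 45.4% for M2-like against M0. The summed level of the 5 eosinophil and mast cell markers (Epx, Prg2, Siglecf, Cpa3, Mcpt4) was lowest in M1-like macrophages, between 0.395 and 1.02 CPM. It overlapped between M0 (16.2 to 17.9 CPM) and M2-like macrophages (14.3 to 18.8 CPM), and its part in the differences was not tested.

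Both receptors were well expressed without stimulus and changed less than their ligand. Tnfrsf1a (chr6:125349362-125362484) was at 132, 126 and 128 CPM in M0, 98.5, 108 and 116 CPM in M2-like and 356, 345 and 354 CPM in M1-like macrophages. Its 3 groups did not overlap, and M1-like exceeded M2-like by 1.71 ± 0.07 on the log2 scale (adjusted p = 3.05e-10, edgeR). Tnfrsf1b (chr4:145213463-145246870) had 971, 992 and 946 CPM in M0, 618, 725 and 699 CPM in M2-like and 2132, 2051 and 2537 CPM in M1-like macrophages. These groups were separate as well, with a log2 fold change of 1.72 ± 0.09 between M1-like and M2-like macrophages (adjusted p = 4.42e-09) and of -0.51 ± 0.09 for M2-like against M0 (adjusted p = 0.00128). For Tnfrsf1a the step from M0 to M2-like was -0.26 ± 0.07 (adjusted p = 0.013), and without M0 replicate 1 it was no longer called (-0.23, adjusted p = 0.071).

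Among the superfamily ligands, Tnfsf15 had the largest fold change of the 10 genes. Tnfsf15 (TL1A, a ligand of death receptor 3, chr4:63727084-63745113) had 49.99, 43.4 and 28.5 CPM in M1-like macrophages. In the other groups it was near the limit of detection, with 12, 19 and 11 reads in M0 and 7, 7 and 6 reads in M2-like macrophages. M1-like exceeded M2-like macrophages by 8.27 ± 0.29 on the log2 scale (adjusted p = 1.17e-10, edgeR). M2-like against M0 was not called (-1.03 ± 0.56, adjusted p = 0.201), but it was with the mouse as a block (adjusted p = 0.0327), and the ratio of the summed reads was 0.486 (95% counting interval 0.270 to 0.846).

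Tnfsf10 (TRAIL, which triggers apoptosis through death receptors, chr3:27317028-27342427) was at 60.3, 66.6 and 92.4 CPM in M1-like, 0.760, 0.448 and 0.551 CPM in M0 and 1.25, 0.884 and 1.34 CPM in M2-like macrophages. It was the one gene of the 10 called higher in M2-like than in M0 macrophages (0.98 ± 0.30, adjusted p = 0.0319, edgeR), and the groups did not overlap. This call was lost without M0 replicate 2 (0.82, adjusted p = 0.115), M0 replicate 3 (0.94, 0.0844), M2-like replicate 1 (0.93, 0.103) or M2-like replicate 3 (0.84, 0.0954). Against M2-like macrophages, the M1-like level of Tnfsf10 was higher by 5.99 ± 0.21 on the log2 scale.

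Tnfsf9 (4-1BB ligand, a costimulator of T cells, chr17:57105325-57107757) followed Tnf in its order of groups, with 24.3, 22.3 and 19.6 CPM in M1-like, 0.900, 1.06 and 1.03 CPM in M0 and 0.648, 0.742 and 0.526 CPM in M2-like macrophages. M1-like differed from M2-like macrophages by 5.11 ± 0.14 on the log2 scale (adjusted p = 1.39e-11, edgeR). The lower level in M2-like against M0 (-0.64 ± 0.17, adjusted p = 0.0162) lost its call without M0 replicate 2 (-0.60, 0.0614) or M2-like replicate 3 (-0.51, 0.0595). Tnfsf9 shares 192 exon bases with Gm11110 on the opposite strand, and whether the counting used strand is not given in the sources used here, so reads of these 2 genes may be mixed.

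Tnfsf13b (BAFF, a survival factor of B cells, chr8:10006467-10039072) stood apart from the other ligands at 24 h. Its levels were 1.62, 1.29 and 1.71 CPM in M0, 1.27, 1.20 and 1.29 CPM in M2-like and 1.97, 1.81 and 1.44 CPM in M1-like macrophages. M0 and M1-like overlapped, and the 95% interval of their log2 difference ran from -0.19 to 0.53. M1-like was called above M2-like macrophages (0.46 ± 0.17, adjusted p = 0.0251, edgeR), but not without M1-like replicate 1 (0.37, 0.0904), M1-like replicate 2 (0.44, 0.0673) or M2-like replicate 2 (0.43, 0.0712).

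Adaptors and the inhibitor changed in the direction of the ligand. Traf1 (an adaptor without a RING domain, chr2:34941750-34961772) was at 195, 201 and 248 CPM in M1-like, 6.20, 5.33 and 4.15 CPM in M0 and 2.82, 2.21 and 2.18 CPM in M2-like macrophages. Its groups did not overlap, and the log2 fold changes were 6.49 ± 0.16 for M1-like against M2-like (adjusted p = 6.37e-12, edgeR) and -1.13 ± 0.17 for M2-like against M0 (adjusted p = 0.000497). Traf2 (the adaptor that recruits the cIAP ubiquitin ligases, chr2:25517982-25546940) had 92.4, 86.4 and 101 CPM in M1-like, 17.8, 16.7 and 17.3 CPM in M0 and 17.3, 16.3 and 16.6 CPM in M2-like macrophages. M0 and M2-like overlapped for Traf2, with a 95% interval from -0.20 to 0.11 on the log2 scale, and M1-like was 5.59-fold above M2-like macrophages.

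Tnfaip3 (A20, chr10:19000910-19015657) was at 602, 580 and 582 CPM in M1-like, 85.6, 77.9 and 83.5 CPM in M0 and 71.9, 68.8 and 69.3 CPM in M2-like macrophages. No group overlapped another, and M1-like exceeded M2-like macrophages by 3.07 ± 0.06 on the log2 scale (adjusted p = 1.12e-12, edgeR). The smaller step from M0 to M2-like (-0.23 ± 0.06, adjusted p = 0.0109) was not called without M0 replicate 1 (-0.20, 0.0624).

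**Figure D2:**
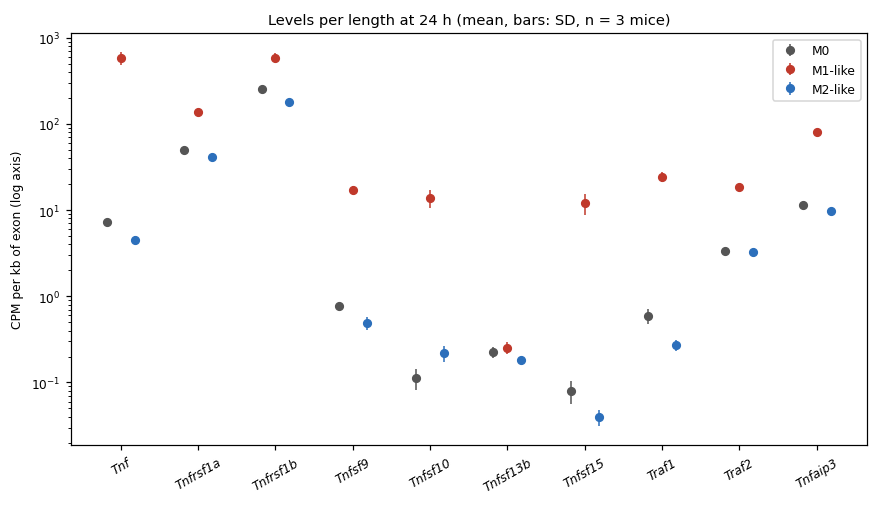
Level per length of the 10 genes at 24 h, in CPM per kb of exon on a log axis, as the mean of 3 mice with SD. Tnf is at 7.25 in M0, 4.55 in M2-like and 578 in M1-like macrophages, and Tnfrsf1b at 254, 178 and 587.

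Per length of exon, the order of the genes changed with polarization. In M0 macrophages, Tnfrsf1b had the highest level of the 10 with 254 ± 6.08 CPM per kb (SD, n = 3), ahead of Tnfrsf1a with 49.6 ± 1.24 and Tnfaip3 with 11.4 ± 0.557. Tnf followed with 7.25 ± 0.586 CPM per kb. In M1-like macrophages, Tnf (578 ± 99.7 CPM per kb) and Tnfrsf1b (587 ± 68.2) were level within their spread, and Tnfrsf1a (136 ± 2.29) and Tnfaip3 (81.4 ± 1.69) came next. The remaining ligands Tnfsf9, Tnfsf10 and Tnfsf15 lay between 12.1 and 17.1 CPM per kb in M1-like macrophages, and Tnfsf13b at 0.253 ± 0.0402.

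The next comparison addressed the same polarization states in the reprogramming experiment, without transfection. The differences between M1-like and M2-like were smaller than at 24 h for 9 of the 10 genes, but the 2 experiments were sequenced and normalized separately, so the sizes are given side by side without a test. Tnf was at 27.0, 37.8 and 34.7 CPM in M1-like, 7.54, 9.43 and 6.27 CPM in M0 and 7.30, 5.93 and 8.002 CPM in M2-like macrophages. M1-like lay above both other groups, which overlapped each other, and its log2 fold change against M2-like was 2.23 ± 0.21 (adjusted p = 4.2e-11, edgeR). Of the 10 genes, 9 were called higher in M1-like than M2-like macrophages (31.3% of all genes) and 9 higher than in M0 (29.0%). Here the median log2 fold change of the 10 genes between M1-like and M2-like was 1.995, beside 0.03 over all genes. M2-like against M0 gave 2 genes lower (9.19% of all genes) and 1 higher (10.7%). Groups did not overlap in 60% of all genes for M1-like against M2-like, 60.5% for M1-like against M0 and 35.8% for M2-like against M0.

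Tnfrsf1b was the gene not called in either comparison of M1-like macrophages. It had 715, 615 and 583 CPM in M1-like, 649, 692 and 720 CPM in M0 and 597, 625 and 723 CPM in M2-like macrophages, and all 3 groups overlapped. The 95% interval of the log2 difference between M1-like and M2-like ran from -0.19 to 0.14. For Tnfrsf1a, M1-like samples were at 173, 223 and 225 CPM against 119, 142 and 144 CPM in M2-like macrophages (0.61 ± 0.10, adjusted p = 3.99e-06, edgeR).

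Tnfsf13b had its highest levels in the M1-like macrophages of the reprogramming experiment. It was at 11.5, 14.7 and 17.6 CPM in M1-like, 1.76, 1.99 and 2.32 CPM in M0 and 0.858, 1.22 and 1.39 CPM in M2-like macrophages. M1-like lay above both other groups without overlap, by 3.64 ± 0.29 on the log2 scale against M2-like (adjusted p = 1.31e-12, edgeR) and by 2.85 ± 0.27 against M0 (adjusted p = 7.57e-11). The summed level of the macrophage markers was between 2632 and 2890 CPM in the untransfected and mock M1-like samples. In all other samples of this experiment it was between 3363 and 4580 CPM. The summed level of the 5 neutrophil markers was not lower, between 7.67 and 13.1 CPM in those M1-like samples and between 3.83 and 10.3 CPM in the others. Markers of several other cell types were lower in the M1-like samples. The summed level of the eosinophil and mast cell markers was between 0.672 and 1.77 CPM in the untransfected and mock M1-like samples and between 9.47 and 47.3 CPM in all other samples of this experiment. Markers of B cells, cells on which the product of Tnfsf13b acts, were lower as well. In the untransfected and mock M1-like samples, Cd79a was between 0.305 and 1.42 CPM, Cd79b between 0.134 and 0.540 CPM and Ms4a1 between 0.0580 and 0.442 CPM. In all other samples of this experiment, Cd79a was between 1.79 and 14.2 CPM, Cd79b between 1.196 and 6.75 CPM and Ms4a1 between 0.849 and 5.54 CPM. The summed level of the 4 mesothelial and fibroblast markers was between 9.41 and 35.9 CPM in those M1-like samples and between 43.8 and 195.7 CPM in the others. Their part in the differences between M1-like and the other groups was not tested.

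Of the other ligands, Tnfsf9 kept the order of groups that it had at 24 h. Tnfsf9 had 8.36, 8.83 and 7.82 CPM in M1-like, 2.49, 2.42 and 2.11 CPM in M0 and 1.002, 0.451 and 0.397 CPM in M2-like macrophages. All 3 groups were separate, and M2-like was below M0 by 1.93 ± 0.33 on the log2 scale (log2 fold change -1.93, adjusted p = 5.46e-05, edgeR). Tnfsf10 was at 2.14, 4.22 and 2.78 CPM in M1-like against 1.17, 0.744 and 1.23 CPM in M0 and 0.501, 0.645 and 0.331 CPM in M2-like macrophages (M1-like against M2-like 2.60 ± 0.41, adjusted p = 2.11e-06). Tnfsf15 counted 33, 17 and 23 reads in M1-like, 2, 5 and 3 reads in M0 and 7, 8 and 5 reads in M2-like macrophages. Summed over the replicates, M1-like against M0 was a ratio of 6.88 for Tnfsf15 (95% counting interval 3.535 to 14.9), and this interval covers counting error only.

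Traf1 stayed higher in M1-like macrophages, at 26.1, 26.8 and 23.8 CPM against 9.30, 5.83 and 4.71 CPM in M0 and 5.15, 3.03 and 4.89 CPM in M2-like macrophages. M0 and M2-like overlapped, and M1-like exceeded M2-like by 2.56 ± 0.18 on the log2 scale (adjusted p = 6.85e-14, edgeR). The lower call of Traf1 in M2-like against M0 (-0.60 ± 0.20, adjusted p = 0.0305) was lost without M0 replicate 1 (-0.28, 0.366) or M2-like replicate 2 (-0.39, 0.221). Traf2 was at 31.6, 33.0 and 29.8 CPM in M1-like against 20.8, 23.3 and 21.1 CPM in M2-like macrophages (0.53 ± 0.09, adjusted p = 6.56e-06).

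Between M1-like and M2-like macrophages, Tnfaip3 had the smallest difference among the called genes. Its levels were 50.5, 60.1 and 54.8 CPM in M0, 70.5, 78.4 and 72.7 CPM in M2-like and 88.4, 84.5 and 85.7 CPM in M1-like macrophages. These groups did not overlap, and here M2-like was above M0 (0.42 ± 0.10, adjusted p = 0.00173, edgeR). Between M1-like and M2-like macrophages, the difference of 0.22 ± 0.09 was called (adjusted p = 0.0402), but not with DESeq2 (0.20, 0.0671), with RLE size factors (0.20, 0.0643), or without M1-like replicate 1, 2 or 3 or M2-like replicate 1 or 3 (0.19 to 0.24).

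**Figure D3:**
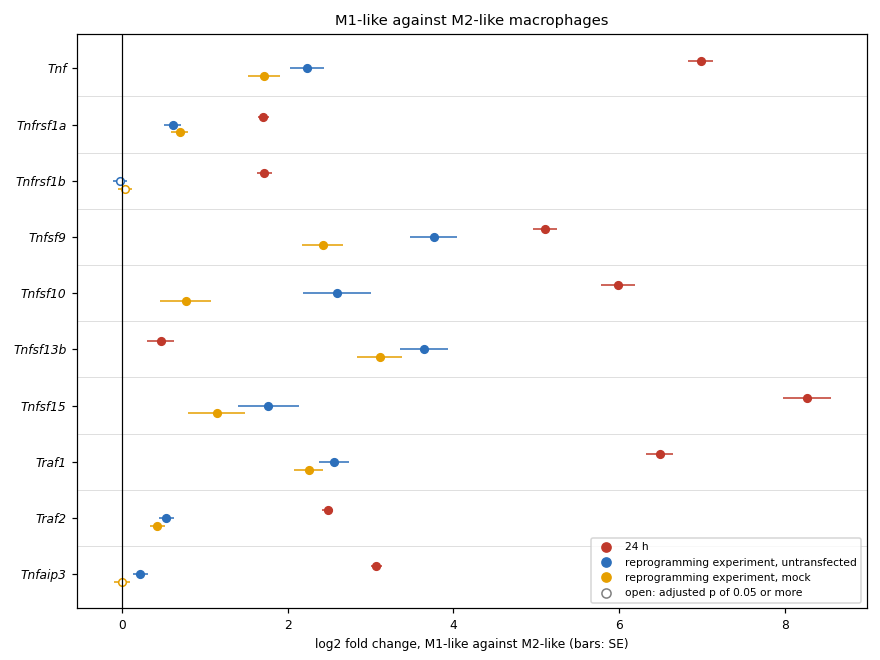
Log2 fold change from M2-like to M1-like macrophages (x axis, bars are SE) for the 10 genes at 24 h (red), in the untransfected (blue) and in the mock samples (orange) of the reprogramming experiment; open circles were not called. Tnf runs from 6.99 at 24 h to 2.23 and 1.71, while Tnfsf13b runs from 0.46 to 3.64 and 3.11.

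Mock samples served as the study's controls for transfection. Between mock M1-like and mock M2-like macrophages, 8 of 10 genes were called higher (30.9% of all genes), with a median log2 fold change of 0.96 beside 0.03 over all genes. Against mock M0, mock M1-like macrophages had 7 genes higher (30.3% of all genes), and mock M2-like macrophages had 1 lower (1.64%), which was Tnf (-1.08 ± 0.20, adjusted p = 0.00118, edgeR). Tnfaip3 (95% interval of the log2 difference -0.19 to 0.19) and Tnfrsf1b (-0.13 to 0.21) were the genes not called between mock M1-like and mock M2-like macrophages.

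Among the 8 called genes, the log2 fold changes ranged from 0.42 ± 0.09 for Traf2 to 3.11 ± 0.27 for Tnfsf13b. Tnfsf13b was at 12.5, 15.6 and 20.3 CPM in mock M1-like against 1.28, 1.68 and 2.65 CPM in mock M2-like macrophages, without overlap (62.1% of all genes had none). Tnfsf10 overlapped between these groups, with 2.39, 4.22 and 4.41 CPM against 1.34, 2.10 and 3.07 CPM. Its call (0.77 ± 0.30, adjusted p = 0.0298, edgeR) was lost without mock M1-like replicate 2 (0.65, 0.107) or 3 (0.62, 0.114) and without mock M2-like replicate 1 (0.51, 0.189) or 2 (0.75, 0.0689). The call of Tnfsf15 (1.14 ± 0.35, adjusted p = 0.00505) was lost without mock M2-like replicate 1 (0.69, 0.0714), whose library held 3 reads of this gene.

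**Figure D4:**
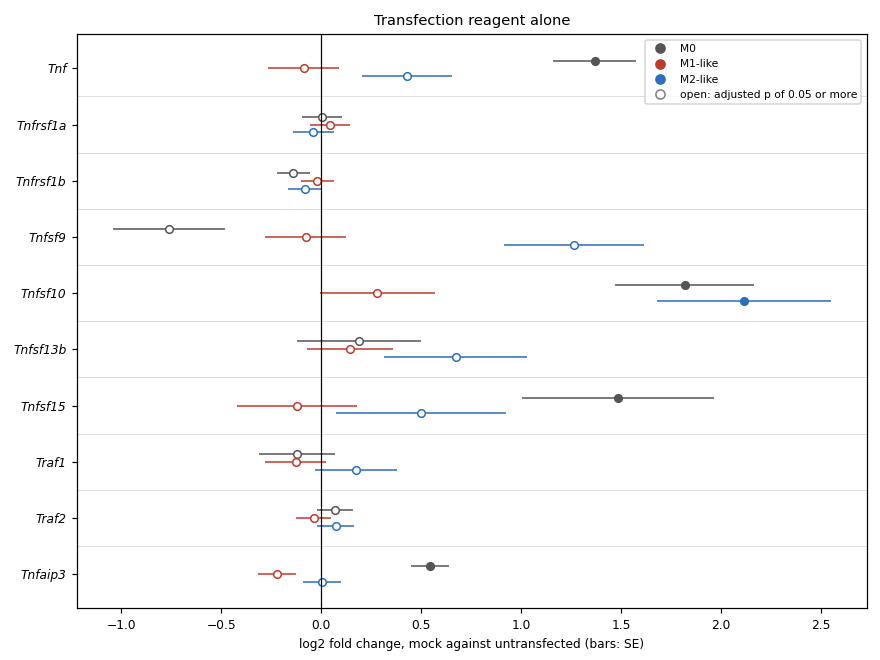
Log2 fold change of mock against untransfected macrophages (x axis, bars are SE) for the 10 genes in M0 (grey), M1-like (red) and M2-like macrophages (blue); open circles were not called. Called are Tnf (1.37), Tnfsf10 (1.82), Tnfsf15 (1.48) and Tnfaip3 (0.54) in M0 and Tnfsf10 (2.11) in M2-like macrophages.

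In M0 macrophages, TNF genes differed between mock and untransfected samples. Since the culture time of the untransfected cells is not given, the reagent and the culture time cannot be told apart here. Tnf was at 20.4, 17.7 and 22.3 CPM in mock against 7.54, 9.43 and 6.27 CPM in untransfected M0 macrophages. These samples did not overlap (1.37 ± 0.21 on the log2 scale, adjusted p = 8.4e-06, edgeR), beside 35.7% of all genes without overlap. In all, 4 of 10 genes were called higher in mock M0 macrophages (11.7% of all genes): Tnf, Tnfsf10 (1.82 ± 0.35), Tnfsf15 (1.48 ± 0.48) and Tnfaip3 (0.54 ± 0.10). In the other direction, Tnfsf9 was at 1.40, 1.07 and 1.70 CPM in mock against 2.49, 2.42 and 2.11 CPM in untransfected M0 macrophages, without overlap. It was not called (-0.76 ± 0.28, adjusted p = 0.0504), but it was with DESeq2 (0.0405) and without mock M0 replicate 3 (-0.93, 0.0393). Tnfsf15 rested on 8, 13 and 10 reads against 2, 5 and 3, and its call was lost without mock M0 replicate 2 (1.41, 0.0791) or 3 (1.47, 0.0509) and without M0 replicate 1 (1.28, 0.0973) or 3 (1.42, 0.0794).

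In M1-like macrophages, no gene was called between mock and untransfected samples (0 of 14172 genes, 0% with edgeR, with 438 at an unadjusted p under 0.05, and 0 with DESeq2). Tnf had 23.3, 38.3 and 31.9 CPM in mock against 27.0, 37.8 and 34.7 CPM in untransfected M1-like macrophages, which overlapped, with a 95% interval from -0.45 to 0.27 on the log2 scale. In M2-like macrophages, 1 of 10 genes was called (1.67% of all genes were called higher). This was Tnfsf10, at 1.34, 2.10 and 3.07 CPM in mock against 0.501, 0.645 and 0.331 CPM in untransfected cells (2.11 ± 0.44, adjusted p = 0.00303, edgeR). Without mock M2-like replicate 3 it was not called (1.78, 0.0545).

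Whether polarization differences were the same in mock and untransfected samples was tested as an interaction. For M1-like against M2-like, 0 of 10 genes were called (1.13% of all genes), with Tnfsf10 at -1.83 ± 0.53 (unadjusted p = 0.0016, adjusted p = 0.119, edgeR). Tnfsf10 was called with DESeq2 (adjusted p = 0.0193) and without mock M2-like replicate 1 (-2.09, 0.0378), and Tnfsf9 was called without mock M2-like replicate 3 (-1.69, 0.00863) or M2-like replicate 1 (-1.85, 0.032). The same interaction against M0, added after the values had been seen, gave 3 genes with a smaller M1-like step in mock samples (5.85% of all genes were lower): Tnf (-1.45 ± 0.27, adjusted p = 0.000445), Tnfaip3 (-0.76 ± 0.13, adjusted p = 0.000183) and Tnfsf10 (-1.54 ± 0.46, adjusted p = 0.0288). The call of Tnfsf10 was lost without mock M0 replicate 3 (-1.21, 0.103), M0 replicate 2 (-1.33, 0.101), mock M1-like replicate 1 (-1.31, 0.0727) or M1-like replicate 2 (-1.23, 0.101). It was also lost when only the groups compared were fitted (-1.55, 0.0848). For M2-like against M0, Tnfsf9 was higher (2.02 ± 0.45, adjusted p = 0.00492; 2.41% of all genes) and Tnfaip3 lower (-0.54 ± 0.13, adjusted p = 0.0126; 3.25%). The Tnfsf9 call was lost when only the groups compared were fitted (2.02, adjusted p = 0.072). Tnf was not called there (-0.94 ± 0.31, adjusted p = 0.0669), but it was with DESeq2 (adjusted p = 0.0218) and without M0 replicate 2 (-1.11, 0.047).

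The reprogramming comparison asked whether silencing 4 regulators moves M2-like macrophages toward the M1-like profile. In iM1 macrophages Tnf was at 37.3, 30.2 and 43.9 CPM, in the negative pool at 15.2, 11.8 and 12.6 CPM and in mock M2-like macrophages at 10.1, 8.97 and 9.41 CPM. The 3 groups did not overlap, and iM1 exceeded the negative pool by 1.49 ± 0.19 on the log2 scale (adjusted p = 4.13e-07, edgeR). Against the mock M1-like samples, at 23.3, 38.3 and 31.9 CPM, iM1 macrophages overlapped and had a 95% interval from -0.11 to 0.61.

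Over the 10 genes, 6 were called higher in iM1 macrophages than with the negative pool (12.5% of all genes) and 0 lower, and their median log2 fold change was 0.64 beside 0.01 over all genes. Against mock M2-like macrophages 8 were higher (19.0% of all genes). Of these, Tnfrsf1a (0.28, adjusted p = 0.0301, edgeR) lost its call without mock M2-like replicate 1 (0.26, 0.0838) or 3 (0.26, 0.0802) or iM1 replicate 3 (0.21, 0.156). The negative pool itself differed from mock in 1 gene (6.67% of all genes were called higher), Tnfsf10, with 4.87, 6.14 and 6.75 CPM against 1.34, 2.10 and 3.07 CPM (1.45 ± 0.29, adjusted p = 0.000857, edgeR). Tnfsf10 is thus called against mock (1.84 ± 0.29) but not against the negative pool (0.39 ± 0.25, 95% interval -0.13 to 0.90). Without mock M2-like replicate 3, Tnfsf15 was called as well between the negative pool and mock (1.32, 0.0447).

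The genes raised in iM1 macrophages were Tnf, 2 superfamily ligands, both adaptors and the inhibitor. Tnfsf15 counted 51, 39 and 53 reads against 17, 16 and 17 with the negative pool (1.48 ± 0.30, adjusted p = 0.000354, edgeR), without overlap. Tnfsf9 was at 4.83, 3.04 and 3.41 CPM against 1.38, 1.80 and 1.72 CPM (1.19 ± 0.25, adjusted p = 0.000603). For Traf1 the samples were at 8.26, 9.94 and 10.7 CPM against 6.38, 5.47 and 5.15 CPM (0.77 ± 0.18, adjusted p = 0.0017). All of these groups were separate, as were those of 44.2% of all genes.

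Traf2 was at 39.2, 31.5 and 35.0 CPM against 23.9, 21.7 and 20.99 CPM (0.67 ± 0.09, adjusted p = 1.05e-06, edgeR), and Tnfaip3 at 115, 105 and 138 CPM against 79.2, 74.2 and 80.1 CPM (0.62 ± 0.09, adjusted p = 7.32e-06). Neither pair of groups overlapped, beside 44.2% of all genes without overlap. The receptors were not called: Tnfrsf1a was at 151, 153 and 174 CPM against 145, 138 and 138 CPM (95% interval -0.02 to 0.39), and Tnfrsf1b at 662, 653 and 714 CPM against 625, 678 and 679 CPM (-0.13 to 0.20). Tnfsf13b, with 2.16, 2.28 and 3.65 CPM against 2.65, 1.20 and 1.77 CPM, overlapped (-0.10 to 1.13). Cd79a was between 4.83 and 8.37 CPM in iM1 and between 2.63 and 6.54 CPM in negative pool samples, the summed level of eosinophil and mast cell markers between 23.9 and 36.1 CPM and between 35.4 and 39.4 CPM, and that of mesothelial and fibroblast markers between 105.6 and 161.1 CPM and between 122.1 and 180.7 CPM. The summed level of the macrophage markers was between 3590 and 3700 CPM in iM1, between 3363 and 3629 CPM in Myc pool and between 4118 and 4439 CPM in negative pool samples. The part of all these markers in the differences was not tested.

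Set against mock M1-like macrophages, iM1 macrophages had 3 genes higher (27.2% of all genes) and 4 lower (25.6%). Higher were Tnfsf10 (1.07 ± 0.26), Tnfsf15 (1.004 ± 0.28) and Tnfaip3 (0.69 ± 0.09), with adjusted p-values between 2.01e-07 and 0.00331 (edgeR). Lower were Tnfsf13b (-2.58 ± 0.25), Traf1 (-1.28 ± 0.16), Tnfsf9 (-1.08 ± 0.21) and Tnfrsf1a (-0.42 ± 0.10), with adjusted p-values between 3.14e-10 and 0.000714. For Traf1 and Tnfsf9 the iM1 level thus lay between that of the negative pool and that of mock M1-like macrophages, while Tnfsf13b in iM1 macrophages overlapped mock M2-like macrophages. Traf2 was not called (0.20 ± 0.09, adjusted p = 0.0533), but it was without mock M1-like replicate 2 (0.31, 0.00538) or iM1 replicate 2 (0.28, 0.0153).

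**Figure D5:**
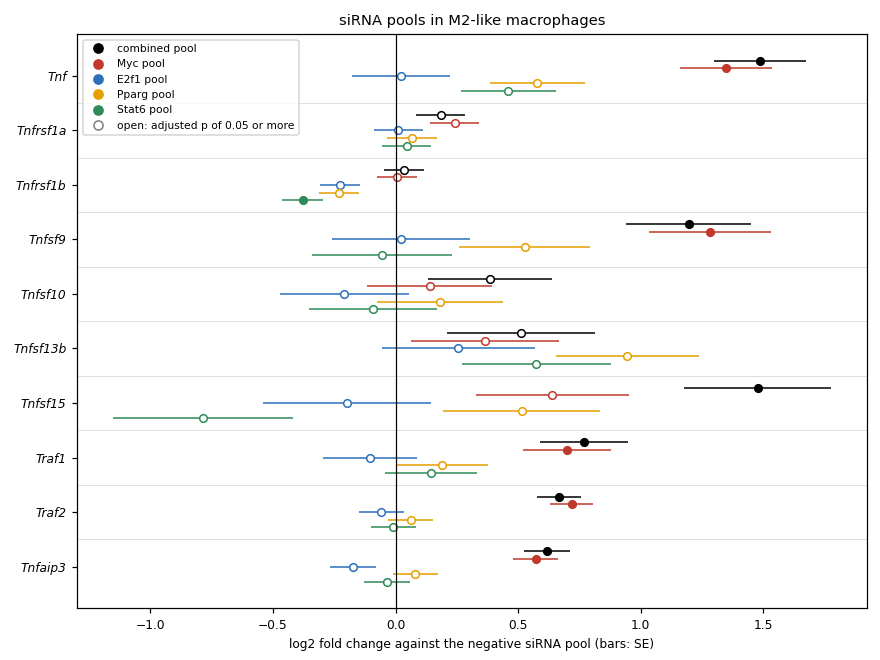
Log2 fold change of each siRNA pool against the negative pool in M2-like macrophages (x axis, bars are SE) for the 10 genes; filled circles were called, open circles were not. The combined (black) and the Myc pool (red) lie together for Tnf (1.49 and 1.35), Traf2 (0.67 and 0.72) and Tnfaip3 (0.62 and 0.57), and the E2f1 pool (blue) stays near 0 for Tnf (0.02).

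The single pools were compared with the same 3 negative pool samples, so their values share these controls. The Myc pool raised 5 of 10 genes (13.9% of all genes were called higher) and lowered none of them. Tnf was at 34.1, 23.999 and 43.1 CPM, above all negative pool samples (1.35 ± 0.19, adjusted p = 1.89e-06, edgeR). Tnfsf9 was at 3.95, 4.07 and 3.91 CPM (1.28 ± 0.25), Traf1 at 8.44, 8.64 and 10.6 CPM (0.70 ± 0.18), Traf2 at 35.2, 35.0 and 39.4 CPM (0.72 ± 0.09) and Tnfaip3 at 112, 103 and 132 CPM (0.57 ± 0.09). None of these 5 overlapped the negative pool, beside 47.8% of all genes without overlap, and their adjusted p-values lay between 2.59e-07 and 0.00338. Tnfrsf1a, at 160, 161 and 177 CPM, did not overlap the negative pool either but was not called (0.24 ± 0.10, adjusted p = 0.0684).

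Between the combined and the Myc pool, 0 of 10 genes were called with edgeR, and 0.0494% of all genes (7 of 14172) were called in either direction. Their log2 differences had 95% intervals from -0.22 to 0.50 for Tnf, -0.54 to 0.37 for Tnfsf9, -0.28 to 0.41 for Traf1, -0.23 to 0.12 for Traf2 and -0.14 to 0.23 for Tnfaip3. Tnfsf15 differed most, with 36, 25 and 28 reads in the Myc pool against 51, 39 and 53 in the combined pool, which did not overlap (0.84 ± 0.28, unadjusted p = 0.00506, adjusted p = 1). It was the 1 gene of the 10 with an unadjusted p under 0.05, beside 427 of all 14172 genes.

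The E2f1 pool changed 0 of 10 genes (0.910% of all genes, edgeR). An unadjusted p under 0.05 was found for 1 of the 10, Tnfrsf1b, beside 1539 of all 14172 genes. Tnf was at 13.6, 12.5 and 14.2 CPM, within the range of the negative pool (0.02 ± 0.20, 95% interval -0.38 to 0.43). The Pparg pool changed 0 of 10 as well (5.74% of all genes), while 3 had an unadjusted p under 0.05, beside 2737 of all 14172 genes. Tnf was at 21.4, 16.0 and 22.0 CPM with the Pparg pool, above the negative pool without overlap (27.7% of all genes had none). Its log2 fold change was 0.58 ± 0.19 (adjusted p = 0.0746, edgeR), and Tnfsf13b was at 4.003, 2.999 and 4.01 CPM (0.95 ± 0.29, adjusted p = 0.0502). Both were called with DESeq2 (adjusted p = 0.0374 and 0.0212). Tnf was also called without Pparg pool replicate 2 (0.72, 0.0466) and Tnfsf13b without negative pool replicate 1 (1.27, 0.0276).

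With the Stat6 pool, 1 of 10 genes was lower (1.04% of all genes). Tnfrsf1b was at 479, 521 and 524 CPM against 625, 678 and 679 CPM (-0.38 ± 0.08, adjusted p = 0.0118, edgeR). These groups did not overlap, but the call was lost without Stat6 pool replicate 1 (-0.34, 0.0756) or negative pool replicate 2 (-0.36, 0.0545) or 3 (-0.36, 0.0703). The E2f1 pool (553 to 584 CPM) and the Pparg pool (531 to 582 CPM) were also below the negative pool in Tnfrsf1b without overlap. Neither was called (both -0.23, adjusted p = 0.254 and 0.0986, edgeR), but both were with only the groups compared (0.0483 and 0.0396). Groups did not overlap in 21% (Stat6), 21.3% (E2f1) and 27.7% (Pparg) of all genes. Tnf, at 16.6, 16.6 and 21.3 CPM, was above the negative pool samples but was not called (0.46 ± 0.20, adjusted p = 0.302).

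Compared directly, the combined pool exceeded the E2f1 pool in 7 of 10 genes (10.3% of all genes), the Pparg pool in 6 (7.68%) and the Stat6 pool in 7 (10.4%). Tnf was higher by 1.46 ± 0.19, 0.91 ± 0.18 and 1.03 ± 0.18 on the log2 scale, with adjusted p-values of 6.97e-07, 0.00057 and 0.000111 (edgeR). Tnfrsf1b was called in each of the 3 comparisons, by 0.26 ± 0.08, 0.26 ± 0.08 and 0.41 ± 0.08, but against the E2f1 pool not without iM1 replicate 3 (0.22, 0.104) or E2f1 pool replicate 1 (0.24, 0.0781) or 2 (0.25, 0.0663), and against the Pparg pool not without iM1 replicate 3 (0.22, 0.113) or Pparg pool replicate 2 (0.22, 0.117). Without iM1 replicate 3 or Pparg pool replicate 2, 3 instead of 6 genes exceeded the Pparg pool. Across the 12 conditions of the reprogramming experiment, the mean level of Tnf fell into steps: iM1 (37.1 ± 6.85 CPM), Myc pool (33.7 ± 9.54), M1-like (33.2 ± 5.58) and mock M1-like (31.1 ± 7.54) overlapped from neighbor to neighbor. Below a gap came mock M0 (20.1 ± 2.31), the Pparg pool (19.8 ± 3.29) and the Stat6 pool (18.2 ± 2.73), then the E2f1 pool (13.4 ± 0.848) and the negative pool (13.2 ± 1.79). Mock M2-like (9.50 ± 0.576), M0 (7.75 ± 1.59) and M2-like macrophages (7.08 ± 1.05) were lowest (SD, n = 3 each). The 5 genes whose mean log2 CPM correlated most with Tnf over these 12 conditions were Ccdc88b (Pearson's r = 0.974), Vps11 (0.973), Cdk12 (0.968), Ddx47 (0.967) and 2310022A10Rik (0.965), of 10130 genes, and these condition means share libraries and normalization.

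The other genes of the superfamily and of its signaling pathway were counted from lists. Over all genes tested, 34.6% were higher and 38.1% lower in 24 h M1-like than 24 h M2-like macrophages, 30.9% and 29.8% in mock M1-like than mock M2-like macrophages, and 12.5% and 13.9% in iM1 macrophages than with the negative pool. Of 13 other ligands, 6 were tested at 24 h, and 3 were higher and 2 lower in M1-like than M2-like macrophages (median log2 fold change 1.11). Lta, the gene of lymphotoxin alpha next to Tnf, was at 11.5 ± 2.28 CPM in M1-like against a mean of 0.00589 CPM in M2-like macrophages, and no fold is given for so few reads. Tnfsf4 (OX40 ligand) rose by 3.05 ± 0.31 on the log2 scale, while Tnfsf13 (APRIL, -3.18 ± 0.13) and Tnfsf12 (TWEAK, -1.64 ± 0.06) were lower, all without overlap of groups. In the mock samples of the reprogramming experiment 2 of 6 ligands were higher and 2 lower, near the shares over all genes (median -0.40), with Tnfsf12 at -0.71 ± 0.12. In iM1 against the negative pool, 0 were higher and 1 of 6 was lower (median -0.11).

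Among 26 other receptors, 19 were tested at 24 h, with 9 higher and 6 lower in M1-like against M2-like macrophages, beside 34.6% and 38.1% of all genes (median 0.55). Cd40, a costimulatory receptor, was at 853 ± 19.4 CPM against 5.67 ± 0.720 CPM (7.24 ± 0.11), and Tnfrsf9, the receptor of 4-1BB ligand, rose by 5.14 ± 0.56. Tnfrsf21 (death receptor 6, -1.64 ± 0.07) and Tnfrsf13b (TACI, a receptor of BAFF and APRIL, -1.42 ± 0.07) were lower. Between mock M1-like and mock M2-like macrophages 7 of 20 were higher and 5 lower, again near the shares over all genes (median 0.09), with Cd40 (3.84 ± 0.22) and Fas (2.78 ± 0.20) against Tnfrsf13b (-0.82 ± 0.11) and Tnfrsf12a (-0.74 ± 0.10). In iM1 against the negative pool 4 of 20 were higher and 5 lower, beside 12.5% and 13.9% of all genes (median -0.13), with Cd40 (1.41 ± 0.21), Fas (0.90 ± 0.20) against Tnfrsf12a (-0.70 ± 0.10) and Tnfrsf13b (-0.41 ± 0.11).

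Of 28 genes of TNF receptor signaling and Tnf control, 23 were higher and 3 lower in 24 h M1-like than 24 h M2-like macrophages, beside 34.6% and 38.1% of all genes (median 0.82). Cflar, an inhibitor of caspase-8 activation, rose by 3.30 ± 0.08 to 930 ± 5.80 CPM, and Birc3, which encodes cIAP2, by 3.12 ± 0.07. Otulin (-1.04 ± 0.06), a linear deubiquitinase, and Tnfaip8 (-0.68 ± 0.09) were lower. Between the mock samples 13 of 28 were higher and 8 lower, beside 30.9% and 29.8% of all genes (median 0.13), with Tnfaip2 (0.80 ± 0.07) and Sharpin (0.76 ± 0.07), a subunit of the linear ubiquitin ligase, against Traf4 (-2.41 ± 0.41) and Tnip3 (-1.31 ± 0.20), an A20-binding inhibitor.

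In iM1 against the negative pool, 11 of the 28 signaling genes were higher and 4 lower, beside 12.5% and 13.9% of all genes (median 0.10). Tnip3 (0.90 ± 0.18) and Traf3 (0.75 ± 0.07) were higher, and Zfp36 (-0.42 ± 0.14), whose product tristetraprolin destabilizes Tnf mRNA, and Tab2 (-0.25 ± 0.06) were lower (adjusted p between 1.59e-09 and 0.0231, edgeR). Tnip3 was higher in iM1 macrophages (25.7 ± 5.43 against 13.7 ± 1.31 CPM) but lower in mock M1-like than mock M2-like macrophages (5.22 ± 1.09 against 13.0 ± 2.77 CPM).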

How the data were processed

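RNA was sequenced from macrophages of both experiments, with single 50-nucleotide reads for polarization and paired 150-nucleotide reads for reprogramming. The deposited values are read counts per gene that the authors made with featureCounts after Trimmomatic and TopHat2 on mm10, per the processing notes (versions not given there). Technical replicates were summed, which left between 39577911 and 59443987 reads per polarization sample. Each experiment was fitted in 1 model in edgeR 4.0.16 (R 4.3.3): filterByExpr (minimum count 10, minimum total 15), TMM, quasi-likelihood F test, Benjamini-Hochberg adjustment over all genes tested, called under 0.05. These main fits held a coefficient for each condition and no term for the mouse or the replicate number. The SE is the log2 fold change divided by the root of F. Mouse numbers pair the polarization samples as the same animals: over 9 pairs, deviations of same-numbered samples correlated with a median of 0.25, and 6 of 9 exceeded 0.1. Alternatives were DESeq2 1.42.0, RLE size factors, other filters, a replicate block, only the groups compared, and leaving out each replicate. The genes and lists were chosen with earlier results of these data known. All 10 genes are named, and of each list the 2 called genes with the largest change in each direction, a mean of at least 1 CPM and no overlap of groups; likeness to Tnf was ranked among genes with a mean log2 CPM of at least 2. Scripts were tested on simulated counts. Gene positions are from GENCODE M21 (GRCm38), and figures were drawn with matplotlib 3.10.9. A further marker gene and a further promoter motif are not reported here.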

Additional observations from a re-analysis of the deposited data

Results flagged for a closer look

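Polarization differences that were not the same in mock and untransfected samples were noted by their interaction test (edgeR, adjusted over all genes). Both interactions against M0 were added after the values had been seen. The step from M0 to M1-like macrophages was smaller in mock than in untransfected samples for Tnf (-1.45), Tnfaip3 (-0.76) and Tnfsf10 (-1.54 on the log2 scale), beside 5.85% of all genes called lower. The Tnfsf10 call was lost when only the groups compared were fitted (adjusted p = 0.0848, edgeR) and when single replicates were left out. The step from M0 to M2-like macrophages differed for Tnfaip3 (-0.54) and Tnfsf9 (2.02), the latter not called when only the groups compared were fitted (adjusted p = 0.072).

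In 3 genes, M2-like and M0 macrophages did not overlap in either experiment and had opposite order. Over all genes, these groups did not overlap in 45.4% at 24 h and in 35.8% in the reprogramming experiment. The share of all genes with both and with opposite order was not counted. Tnfaip3 had a log2 fold change of -0.23 at 24 h and 0.42 in the reprogramming experiment. Tnfsf10 had 0.98 at 24 h and -1.06 in the reprogramming experiment, the second of which was not called. Tnfsf15 had -1.03 and 0.97, on few reads and with neither called. These differences were not tested, since the experiments were sequenced and normalized separately.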

How the results depend on the processing

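No value reversed under any alternative run; a value called in neither fit was counted as the same. With at least 10 counts in every sample, which tested fewer of the 10 genes, the called genes fell to 5 between M1-like and M2-like (untransfected, and also mock) and between iM1 and mock M2-like, to 2 for mock against untransfected M0, to 0 for mock against untransfected M2-like and for the negative pool against mock, and to 1 for the M2-like against M0 interaction, while the Pparg pool gained 1. Among values still tested with this filter, 1 lost its call (Tnfaip3 between untransfected M1-like and M2-like) and 2 gained one. The other missing calls were of genes no longer tested. Without a filter, 2 were called for mock M2-like against mock M0, mock against untransfected M2-like, the negative pool against mock, the Pparg and the Stat6 pool, and 1 for the M1-like against M2-like interaction. DESeq2 called 2 for mock against untransfected M2-like and for the Pparg pool, and 1 for that interaction. With only the groups compared, 2 were called for the negative pool against mock and for the Pparg pool and 1 for the E2f1 pool. Apart from the filter, the causes were not tested.

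Leaving out 1 replicate gave 1 to 2 calls for mock against untransfected M2-like and for the negative pool against mock, 0 to 1 for the Pparg pool, the Stat6 pool and the M1-like against M2-like interaction, and 3 to 6 for iM1 against the Pparg pool.

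Reprogramming replicates share only a number: 131 of 198 same-numbered pairs correlated above 0.1, and 34 of 36 samples correlated best with their own number. With the replicate block, 2 genes were called for the Pparg pool (Tnf, 0.0441; Tnfsf13b, 0.0111) and 1 for the M1-like against M2-like interaction (Tnfsf10, 0.0164), Tnfrsf1a was called for the Myc pool (0.0174), and over both experiments 10 values became called and 0 lost their call. With the mouse as block at 24 h, Tnfsf15 was the 1 value that changed its call.

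Over all genes, calls for the E2f1 pool went from 129 to 209 (DESeq2), 237 (no filter), 236 (block) and 342 (groups compared), for the Stat6 pool from 214 to 362 (DESeq2) and 380 (block), for iM1 against the Myc pool from 7 to 11 (DESeq2) and 28 (no filter), and for mock M2-like against mock M0 from 543 to 900 (block) and 111 (groups compared). Without a filter, mock against untransfected cells went from 0 to 42 (M1-like) and from 251 to 387 (M2-like), and the M1-like against M2-like interaction from 160 to 306. With only the groups compared, the interactions against M0 went from 1286 to 735 (M1-like) and from 802 to 495 (M2-like). Depth limits Tnfsf15 most, with 2 to 8 reads in untransfected M0 and M2-like libraries of the reprogramming experiment.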
